A study of Mus musculus with 10 samples.

Results

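Lhx1, E2f1, Nup50 and Alkbh4 encode a pair of transcription factors, a nucleoporin and a demethylase. Each of the 4 genes was read here by a probe in RNA of vesicles released in the mouse brain. They are 4 of the 46 genes whose probe carries a name that could be looked up, on an array of 60823 probes in all. They were chosen by gene symbol, with earlier results of these data known. Each is read by 1 probe printed at 10 spots, identified in the scanner files by A_51_P452119 (NM_008498) for Lhx1, A_51_P120636 (NM_007891) for E2f1, A_51_P411297 (NM_016714) for Nup50 and A_51_P209965 (NM_028070) for Alkbh4. All samples came from adult female C57BL/6J mice, an inbred strain, with no genetic change named in the labels. The 5 control samples came from mice in room air, and the 5 treated samples from mice given chronic intermittent ethanol vapor, a model of repeated intoxication and withdrawal. Exposure lasted 8 h daily on 5 days of each week over 4 weeks, with the brain collected right after the final exposure day. Extracellular vesicles of the whole brain were isolated by differential ultracentrifugation, and their RNA was labelled with Cy3 and hybridised to 1 single-colour Agilent array per sample. The labels do not say whether a sample is 1 animal, so the p-values rest on the spread between samples, part of which may be technical. In such bulk RNA, fewer vesicles of a kind and less of an RNA in each vesicle cannot be told apart.

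Lhx1 is a LIM homeodomain transcription factor that works with LIM-binding cofactors and is known for head formation and for the specification of neurons, Purkinje cells among them. E2f1 is the transcription factor that the retinoblastoma protein holds inactive until a cell enters S phase, and in neurons that no longer divide it is better known for its part in cell death. Nup50 is a mobile nucleoporin of the nuclear basket that binds importin alpha and promotes the release of imported cargo. Alkbh4 belongs to the AlkB family of iron and oxoglutarate dependent oxygenases and removes a methyl mark from actin, which bears on the binding of actin and myosin. All 4 proteins act inside cells, whereas the probes here are aimed at their RNA outside cells, in vesicles. For E2f1, Nup50 and Alkbh4 detection of that RNA is limited, as set out below.

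Each level below is the log2 intensity of a probe minus that of its array's 75th percentile, and a group difference is the ethanol level minus the room air level. A probe counts as well above background on an array where the scanner software marks at least 0.5 of its spots so. The arrays form 2 sets that share a scan image identifier, called slides here. Slide 1 held room air replicates 1 to 3 and ethanol replicate 4, and slide 2 held room air replicates 5 and 9 and ethanol replicates 6, 7, 8 and 10. The slides stood apart for most probes. Of 49363 tested probes, 37141 (75.2%) passed an adjusted p of 0.05 between slides in limma, 28051 of them higher on slide 2. The 45 spots named as negatives, 15 probes that are not marked as controls, had median intensities of 11.97 to 15.13 on slide 1 and 51.5 to 80.4 on slide 2. Between 62.1% and 87.9% of the noncontrol spots of an array were well above background, and the number of arrays limits the precision of every value below. Each group difference is therefore given over all arrays, with the slide as a block, and within each slide.

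Between ethanol and room air, 0 of the 4 genes and 0% of the 49363 tested probes passed the threshold in limma, both over all arrays and with the slide as a block. At an unadjusted p under 0.05 the fit over all arrays held 0 of the 4 genes and 4.93% of all probes. With the slide as a block it held 1 of the 4, Lhx1, and 8.61% of all probes, with 4.64% of all probes in its direction. In the fits within a slide Lhx1 was lower after ethanol on both slides and E2f1 higher on both, neither passing. On slide 1 both rest on 1 ethanol array. On slide 2 the E2f1 groups overlapped, with ethanol arrays from -2.88 (replicate 7) to -1.59 (replicate 8). There E2f1 exceeded the median of the spots named as negatives on 1 of 6 arrays. Nup50 and Alkbh4 read higher on slide 2 without passing, and on slide 1 their readings were mostly not above background. The median blocked difference of the 4 was 0.15, beside 0.033 over all tested probes.

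The Lhx1 probe was well above background on all 10 arrays. On slide 1 the room air arrays read -0.99, -0.52 and 0.11 for replicates 1, 2 and 3, and the ethanol array read -1.49. On slide 2 the room air arrays read 1.62 and 1.49 for replicates 5 and 9, and the ethanol arrays 1.06, 1.35, 1.19 and 0.79 for replicates 6, 7, 8 and 10. On each slide every ethanol array lay below every room air array. Among the tested probes without a missing spot value, 4.00% showed that arrangement on both slides, 26.9% on slide 1 and 9.04% on slide 2. Spots of the Lhx1 probe agreed closely within an array, with SDs from 0.055 to 0.25 and a median standard error of 0.035. That standard error was far below the residual SD of 0.37 between arrays in a fit with slide and group. Within a slide and group, the SD between arrays was 0.55 (room air, slide 1), 0.095 (room air, slide 2) and 0.24 (ethanol, slide 2).

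Across all arrays the mean Lhx1 level was 0.34 ± 1.17 (SD, n = 5) for room air, against 0.58 ± 1.17 (SD, n = 5) after ethanol. That difference of 0.24 (SE 0.66) had an adjusted p of 0.845 and the opposite sign to the differences within slides. Of the room air arrays 3 of 5 were on slide 1, where Lhx1 read lower on this scale, and of the ethanol arrays 1 of 5. The unblocked difference turned to -0.19 with median scaling and to -0.77 with scaling to the spots named as negatives. Blocking by slide gave a difference of -0.66 (SE 0.23), which is 1.58-fold lower with a 95% interval of 1.11 to 2.25-fold. Its unadjusted p was 0.0153 and its adjusted p 0.576 in limma, so it did not pass. Over 7 blocked fits, this one and those with other scalings, another background or fewer spots, the Lhx1 difference ran from -0.74 to -0.49 and the adjusted p from 0.475 to 0.889, and with array weights added it was -0.60 with an adjusted p of 0.223. Leaving out 1 array at a time kept the blocked value between -0.77 and -0.46 and the adjusted p between 0.352 and 0.933, and the value was nearest to 0 without ethanol replicate 4.

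Within slide 1 the Lhx1 difference was -1.03 (SE 0.48), resting on 1 ethanol array that is assumed to vary like the 3 room air arrays. Within slide 2 it was -0.46 (SE 0.20), with an unadjusted p of 0.0492 and an adjusted p of 0.651, and 3.23% of all probes had an unadjusted p under 0.05 in the same direction there. The gap between the groups on slide 2 was narrow, from 1.35 in the highest ethanol array to 1.49 in the lowest room air array. It closed when the arrays were not scaled at all, where ethanol replicate 7 read 9.558 and room air replicate 9 read 9.545 in plain log2 intensity. The ethanol arrays stayed below on both slides under 6 of 7 ways of treating the intensities, though by 0.0019 on the scale of the spots named as negatives. Over these 7 ways, 1.72% to 4.26% of the tested probes without a missing spot value showed that arrangement. All 7 reuse the same 10 arrays and are not independent of each other. A test of whether the Lhx1 difference itself differed between the slides gave an interaction of 0.57 (SE 0.47) with an adjusted p of 0.880.

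**Figure D1:**
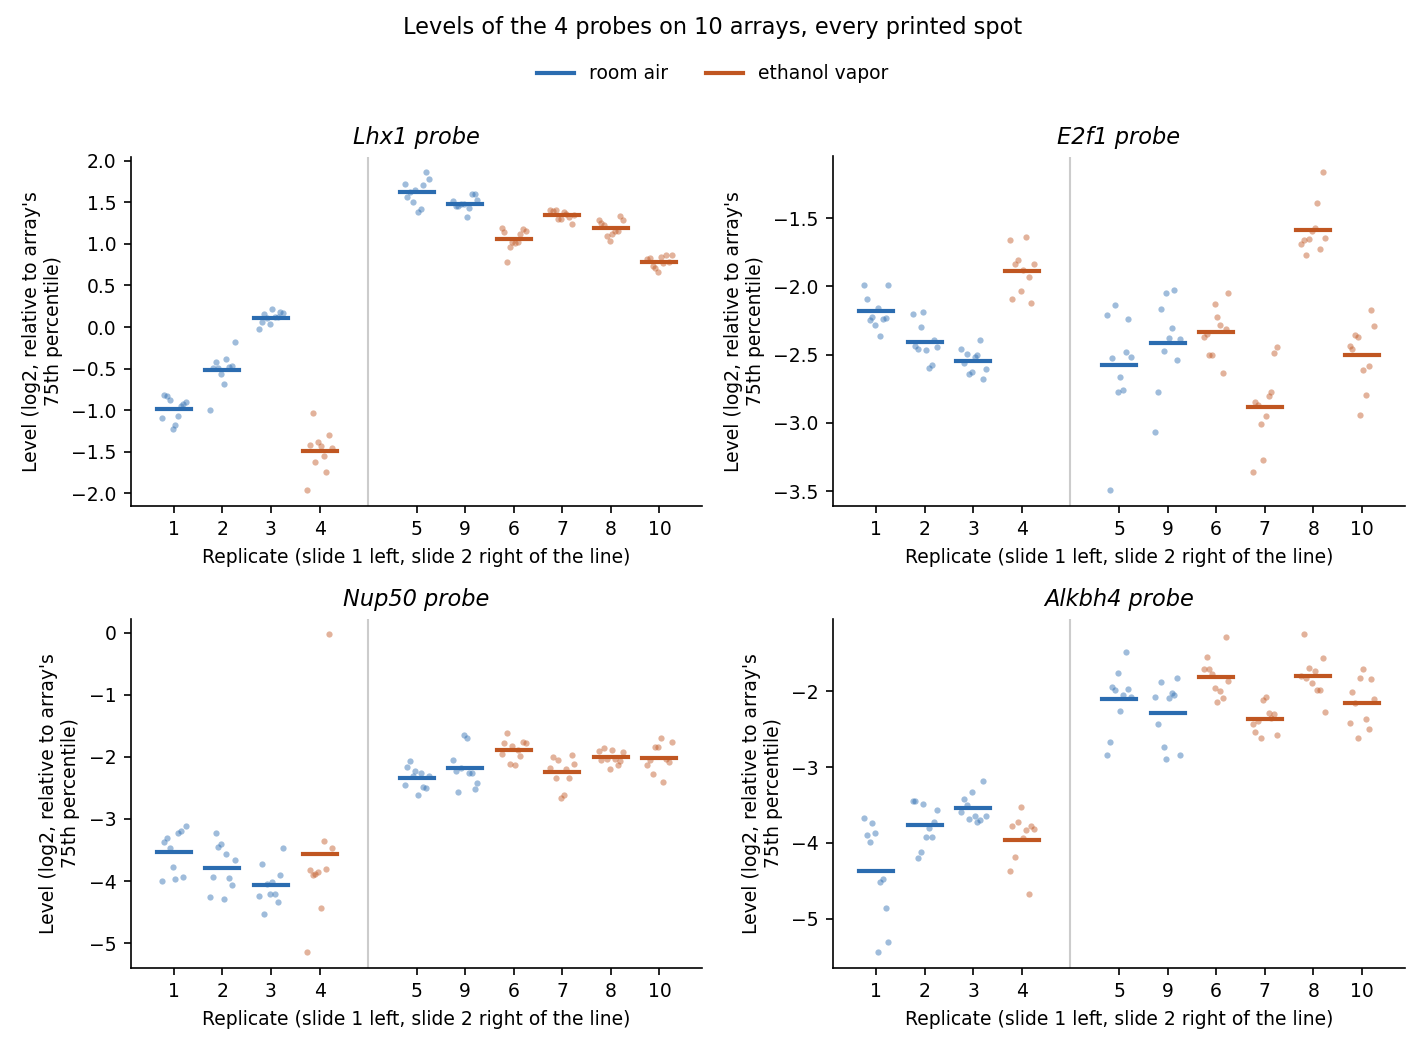
Levels of the Lhx1, E2f1, Nup50 and Alkbh4 probes on the 10 arrays, as log2 intensity relative to the array's 75th percentile. Dots are the 10 printed spots, bars their mean, blue room air and orange ethanol vapor, with slide 1 to the left of the grey line. Lhx1, Nup50 and Alkbh4 sit higher on slide 2 on this scale, and within each slide the Lhx1 bars of ethanol arrays lie below those of room air arrays.

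E2f1 stayed between -2.88 and -1.59 on this scale and did not separate the groups. Room air arrays read -2.18, -2.41, -2.55, -2.58 and -2.42 for replicates 1, 2, 3, 5 and 9. Ethanol arrays read -1.88, -2.33, -2.88, -1.59 and -2.50 for replicates 4, 6, 7, 8 and 10. The ethanol arrays thus held both the lowest and the highest E2f1 readings, and all room air arrays lay between them. The group means were -2.43 ± 0.16 (SD, n = 5) for room air and -2.24 ± 0.51 (SD, n = 5) for ethanol. They differed by 0.19 (SE 0.26), with an adjusted p of 0.683 in limma. Blocking by slide gave 0.29 (SE 0.24) and an adjusted p of 0.733. Within slide 1 the E2f1 difference was 0.49 (SE 0.33), with a 95% interval from 0.81 to 2.45-fold, and within slide 2 it was 0.17 (SE 0.31), with an interval from 0.69 to 1.84-fold. Without the block the E2f1 difference turned negative with median scaling (-0.24), quantile normalization (-0.38) and scaling to the spots named as negatives (-0.82). Leaving out 1 array at a time, the unblocked E2f1 difference ran from 0.025 without ethanol replicate 8 to 0.35 without ethanol replicate 7.

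The E2f1 probe was well above background on 9 of 10 arrays, with ethanol replicate 10, where 2 of its 10 spots were so, as the exception. Its spots varied more on slide 2, where the median SD between them was 0.26, than on slide 1, where it was 0.13. E2f1 was also the one gene of the 4 that did not pass between slides on this scale, with a difference of -0.25 (SE 0.24) and an adjusted p of 0.369.

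Nup50 read higher in the ethanol group over all arrays, without passing, and the difference was smaller with the slide as a block. On slide 1 the room air arrays read -3.54, -3.78 and -4.07 and the ethanol array -3.57. On slide 2 the room air arrays read -2.34 and -2.18 and the ethanol arrays -1.88, -2.25, -2.01 and -2.01. The groups overlapped on both slides. Nup50 means were -3.18 ± 0.86 (SD, n = 5) for room air and -2.34 ± 0.70 (SD, n = 5) for ethanol, which differ by 0.84 (SE 0.46) with an adjusted p of 0.529. On this scale the slide taken alone accounted for 95.1% of the variance of Nup50 between arrays and the group taken alone for 26.2%. These shares overlap because the groups are unevenly spread over the slides. The blocked Nup50 difference was 0.22 (SE 0.15) with an adjusted p of 0.678. Within slide 2 alone it was also 0.22 (SE 0.18), which is 1.17-fold with a 95% interval from 0.88 to 1.55-fold.

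The slide 1 readings of Nup50 are dim, because the probe was well above background on 0 of 4 arrays there and on 6 of 6 on slide 2. The values over all arrays and with the block use those readings, and the value within slide 2 does not. The reading of ethanol replicate 4 rested partly on 1 bright spot. That spot had an intensity of 266, the next brightest spot of the probe on that array had 26.5, and the SD between its spots was 1.34, against 0.11 to 0.37 on the other arrays. Without that spot the level of replicate 4 would be -3.96 in place of -3.57. Leaving out all spots that the scanner software marks as population outliers took the blocked Nup50 difference from 0.22 to 0.18.

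Alkbh4 also read higher on slide 2 on this scale, and its groups differed little within a slide. Room air arrays read -4.38, -3.76 and -3.54 on slide 1 and -2.10 and -2.28 on slide 2. The ethanol arrays read -3.96 on slide 1 and -1.80, -2.37, -1.80 and -2.15 on slide 2. On each slide the groups overlapped. Means were -3.21 ± 0.98 (SD, n = 5) and -2.42 ± 0.90 (SD, n = 5), a difference of 0.80 (SE 0.54) with an adjusted p of 0.529. The blocked Alkbh4 difference was 0.079 (SE 0.20) with an adjusted p of 0.934. It was -0.068 (SE 0.42) within slide 1 and 0.16 (SE 0.22) within slide 2, where it is 1.12-fold with a 95% interval from 0.80 to 1.56-fold. The interaction of slide and group was -0.32 for E2f1, -0.0028 for Nup50 and 0.23 for Alkbh4, with adjusted p-values of 0.929, 0.999 and 0.941 in limma. On slide 1 the Alkbh4 probe was well above background on 1 of 4 arrays, room air replicate 3, so its values there are mostly dim readings. Room air replicate 1 held its dimmest reading, with a median intensity of 12.3 and an SD of 0.65 between spots. Array weights, which give less weight to arrays that depart from the fit, called Lhx1 (1.30), Nup50 (1.63) and Alkbh4 (1.72) higher after ethanol. Most probes were called by that fit, 34418 of the 49363 tested, with 26431 higher and 7987 lower. With the slide as a block array weights called none.

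**Figure D2:**
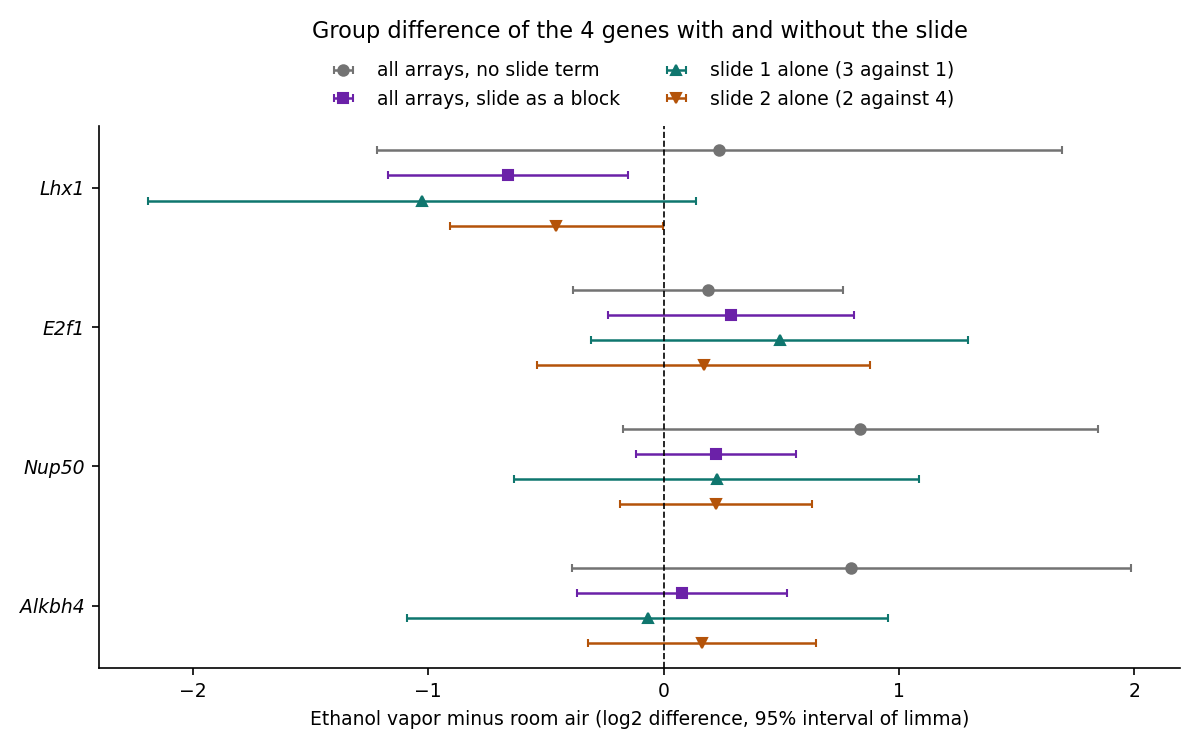
Ethanol vapor minus room air for the 4 genes in log2 units, with the 95% intervals of limma, from the fit over all arrays without a slide term, with the slide as a block, and from each slide alone. The blocked Lhx1 interval lies below 0, from -1.17 to -0.15, before adjustment for the number of probes, and the blocked intervals of the other 3 genes span 0. The fits that use slide 1 include readings of Nup50 and Alkbh4 that were not well above background.

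Set against the probes named as negatives, Lhx1 was the only one of the 4 whose reading stood above their median on all arrays by a wide margin. It exceeded that median by 2.82 to 4.80 log2 units and exceeded all 45 of those spots on every array. E2f1 was 1.91 to 2.62 units above the median on slide 1. On slide 2 its difference from the median was -0.57 to 0.52, and it lay above it on 1 of 6 arrays, ethanol replicate 8. Nup50 differed from the median by 0.56 to 0.93 on slide 1 and by -0.12 to 0.13 on slide 2. Alkbh4 differed by -0.28 to 1.14 on slide 1 and by -0.12 to 0.31 on slide 2. The negatives were themselves well above background in 17.8% to 31.1% of their spots on slide 1 and 55.6% to 82.2% on slide 2. A mark of well above background for E2f1, Nup50 or Alkbh4 on slide 2 does not therefore stand for detection of the transcript here. Their group differences on slide 2 describe probe signal near that of the negatives. On slide 1 E2f1 exceeded 93.3% to 100% of those spots, whereas Nup50 and Alkbh4 were mostly not well above background there.

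**Figure D3:**
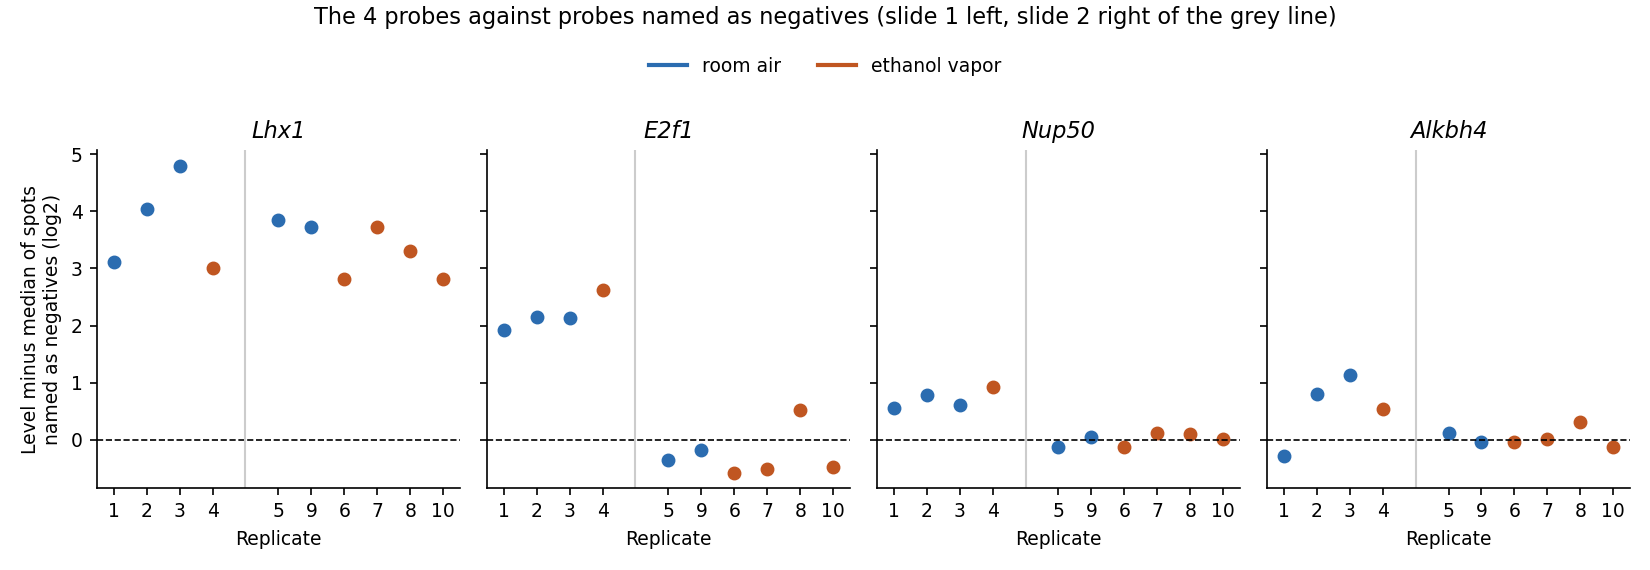
Level of each of the 4 probes minus the median of the 45 spots named as negatives on the same array, in log2 units, by replicate. Lhx1 stays at least 2.82 above 0 on all 10 arrays, E2f1 is at least 1.91 on slide 1 and between -0.57 and 0.52 on slide 2, and Nup50 and Alkbh4 lie within 0.31 of 0 on slide 2.

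The difference between slides depended on what the arrays were scaled to. Relative to the 75th percentile, 3 of the 4 genes passed as higher on slide 2, with group as a covariate, where 56.8% of all probes did, and 0 of the 4 passed as lower, where 18.4% of all probes did. Nup50 and Alkbh4 were well above background on 0 and 1 of the 4 arrays of slide 1 and entered the test through slide 2, so their part of that count supports nothing and is given as a description. Lhx1, well above background on every array, differed by 2.24 (SE 0.24), or 4.74-fold, with an adjusted p of 7.66e-06. For Nup50 the measured means were -3.74 on slide 1 and -2.11 on slide 2, and for Alkbh4 they were -3.91 and -2.08. No fold is given for either gene. Their slide 1 readings were mostly not well above background, and their slide 2 readings lay near the spots named as negatives. The Lhx1 readings did not overlap between slides, and slide 2 was higher without overlap for 46.0% of all probes. Relative to the spots named as negatives the difference was -0.058 (SE 0.31) for Lhx1, -2.55 (adjusted p 6.72e-08) for E2f1, -0.77 for Nup50 and -0.51 for Alkbh4. That scaling moved the median of all probes from 0.69 to -1.62. With quantile normalization Lhx1 still passed as higher on slide 2, by 2.16, E2f1 passed as lower, by -1.39, and the differences were 0.12 for Nup50 and 0.35 for Alkbh4.

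Differences between 2 probes on one array do not depend on scaling that subtracts 1 value per array. Quantile normalization and normexp can change them, and the differences were not computed under those. Probes differ in response, so only the change of such a difference is described. For Nup50 and Alkbh4 it is given only on slide 2, where both were marked well above background on every array. That mark does not stand for detection there. On slide 2 Nup50 lay -0.12 to 0.13, Alkbh4 -0.12 to 0.31 and E2f1 -0.57 to 0.52 from the median of the spots named as negatives. The slide 2 differences below therefore set Lhx1 against a signal near that of the negatives. Lhx1 minus Nup50 on slide 2 was 3.67 to 3.96 in room air and 2.80 to 3.60 after ethanol. Lhx1 minus Alkbh4 there was 3.721 to 3.77 in room air and 2.86 to 3.715 after ethanol, with ethanol replicate 7 within 0.0059 of the room air arrays. The groups did not overlap in either of these differences, an arrangement that 9.04% of single probes showed on slide 2 in the same direction, and its share over other pairs of probes was not computed. Lhx1 minus E2f1 was 1.19 to 2.66 in room air and 0.40 after ethanol on slide 1, and its groups overlapped on slide 2, with 3.90 to 4.20 in room air and 2.78 to 4.23 after ethanol. With the slide as a block its ethanol minus room air change was -0.95 (SE 0.42). All these differences share the Lhx1 reading and are not independent of each other.

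**Figure D4:**
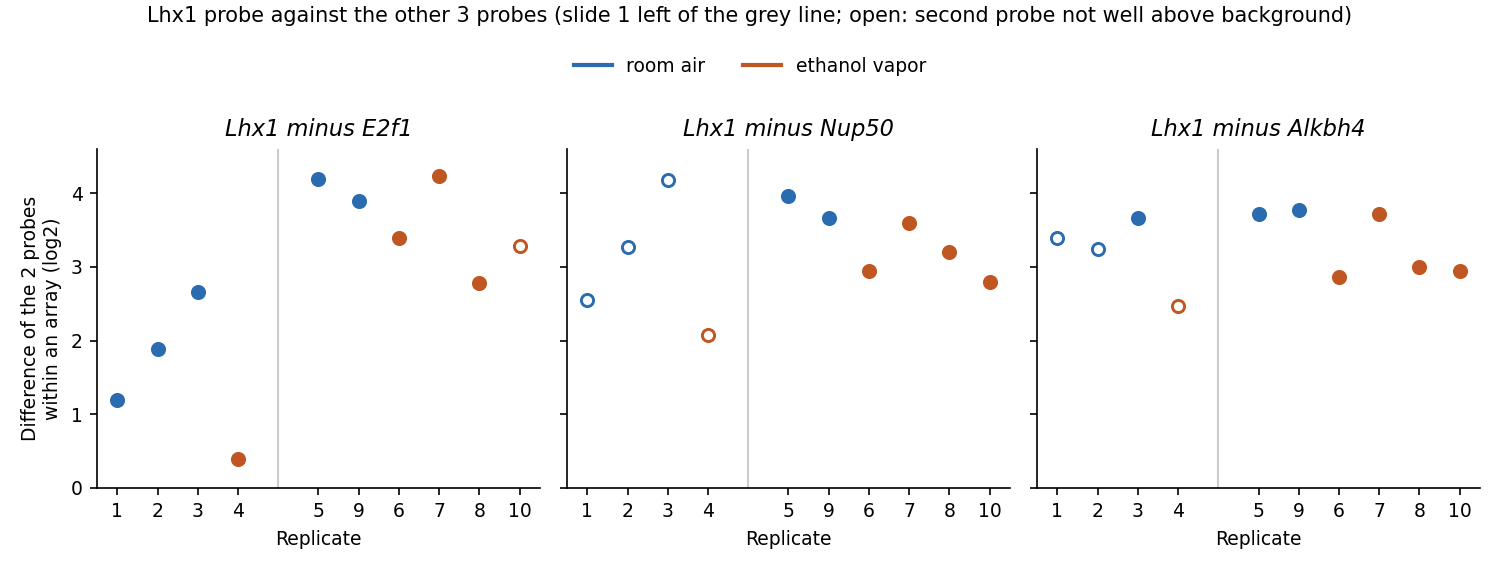
The Lhx1 reading minus the E2f1, Nup50 and Alkbh4 readings on the same array, in log2 units, by replicate, with open circles where the second probe was not well above background. On slide 2 the ethanol arrays lie below the room air arrays for Nup50 and Alkbh4, by as little as 0.0059 for Alkbh4, and for E2f1 the groups overlap there. The second probe of each difference read near the spots named as negatives on slide 2.

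Among the differences without Lhx1, on slide 2, E2f1 minus Nup50 was -0.63 to 0.42, E2f1 minus Alkbh4 was -0.53 to 0.21 and Nup50 minus Alkbh4 was -0.24 to 0.14. In all 3 the groups overlapped there, and all 3 probes read near the spots named as negatives on that slide.

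Beside the other genes with a named probe, Lhx1 stood at the low end of the blocked group differences. It had the lowest value of the 35 tested named genes, while E2f1 and Nup50 ranked 3rd and 4th from the top and Alkbh4 14th. Next to Lhx1 (-0.66, SE 0.23) came Tm9sf1 at -0.59 (SE 0.27) and Olfr1307 at -0.47 (SE 0.21), none passing. A low blocked value was thus not particular to Lhx1. The median blocked difference was 0.044 over the 35 genes and 0.033 over all tested probes. Over all probes 1.62% had a lower blocked difference than Lhx1 and 2.44% a smaller p. Only Lhx1 and the olfactory receptor gene Olfr166 of the 35 had every ethanol array below every room air array on both slides, an arrangement that 4.00% of all probes showed. None of the 35 showed the reverse, which 2.66% of all probes did.

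**Figure D5:**
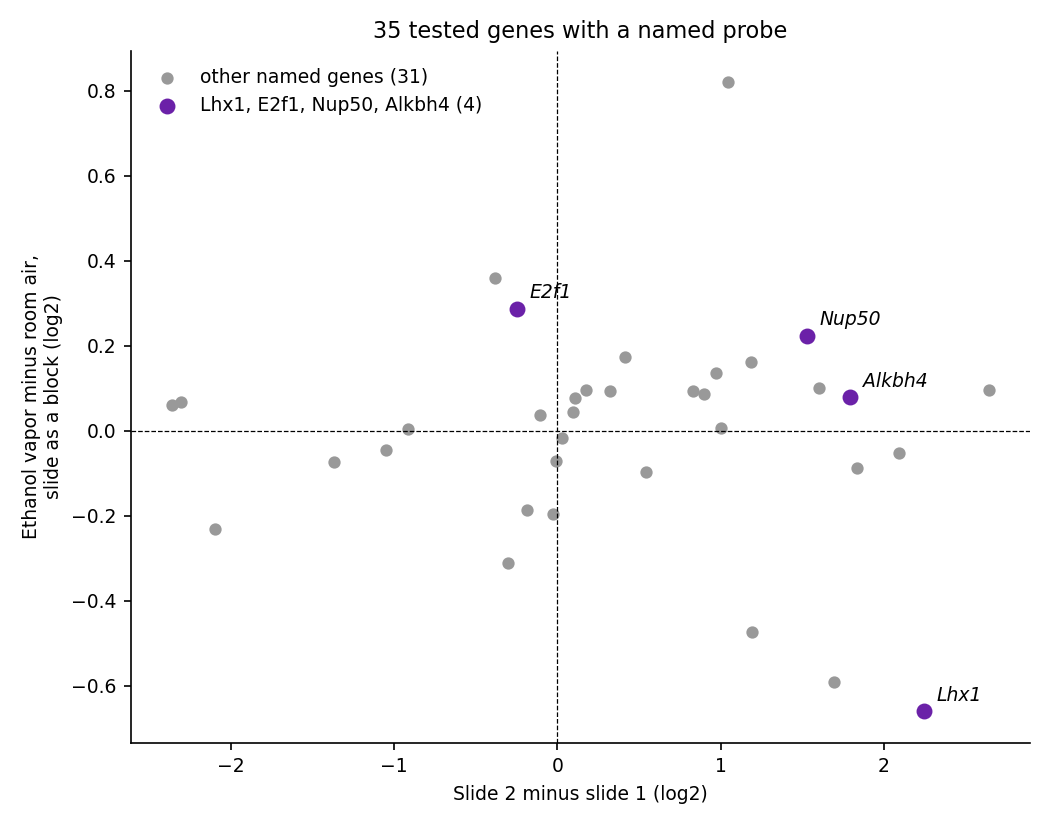
Slide 2 minus slide 1 against the blocked ethanol minus room air difference, both in log2 units relative to the array's 75th percentile, for the 35 tested genes with a named probe, with the 4 genes in purple. Lhx1 is at 2.24 and -0.66, the lowest blocked group difference, Nup50 at 1.53 and 0.22, Alkbh4 at 1.80 and 0.079, and E2f1 at -0.25 and 0.29. The slide differences depend on the scaling, and relative to the spots named as negatives those of Lhx1, Nup50 and Alkbh4 are below 0.

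After the mean of each slide was subtracted, the reading of Lhx1 over the 10 arrays was most like those of Tm9sf1, a transmembrane protein of the endomembrane system (r 0.98), Olfr166 (r 0.91) and another olfactory receptor gene, Olfr1307 (r 0.73). On the 6 arrays of slide 2 alone these values were 0.94, 0.88 and 0.97. Nup50 was most like Gsta4, a glutathione transferase (r 0.91), the ribosomal protein S4-like gene Rps4l (r 0.86) and Taf1a, a subunit of the selectivity factor of the RNA polymerase that copies ribosomal RNA genes (r 0.85). Its slide 2 values were 0.92, 0.79 and 0.87. E2f1 came closest to Taf1a (r 0.70), Rps4l (r 0.68) and Nup50 (r 0.61), and Alkbh4 to Mzb1, a B cell chaperone (r 0.65), Hyal3, a hyaluronidase family gene (r 0.58), and Acaa2, a mitochondrial thiolase (r 0.55). For these 2 genes the slide 2 values ranged more widely, from 0.29 between Alkbh4 and Hyal3 to 0.91 between Alkbh4 and Mzb1. Between Lhx1 and Nup50 r was -0.87 over 10 arrays and -0.81 on slide 2, and for each of these 2 genes that was the lowest of its 34 values. These correlations are descriptions over probes that share the same arrays and the same scaling. On slide 1 Nup50 was well above background on 0 of 4 arrays and Alkbh4 on 1 of 4. On slide 2 E2f1, Nup50 and Alkbh4 read near the spots named as negatives. Their correlations describe probe signal, and whether the transcripts vary together was not tested.

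Little of the surrounding pathways could be read on this array. Of 132 genes listed for LIM homeodomain factors, E2F and RB cell cycle control, nuclear transport, and the AlkB family with actin and myosin, 5 had a named probe, the 4 genes themselves and Actb. Actb encodes beta-actin, of the protein family that Alkbh4 acts on. Actb stood at 0.97 ± 0.20 (SD, n = 5) under room air and at 0.90 ± 0.15 (SD, n = 5) after ethanol. The difference was -0.075 (SE 0.19), and blocking by slide gave -0.071 (SE 0.16), neither passing. The unblocked Actb difference was positive with quantile normalization (0.11) and with the 75th percentile over probes well above background on all arrays (0.19), and it was -0.50 with median scaling and -1.08 with scaling to the spots named as negatives. Within slide 1 it was 0.064 and within slide 2 -0.15. Of 31 markers listed for brain cell types, blood and vesicles, 3 had a named probe. They were Chgb, listed for neurons, Mbp, listed for oligodendrocytes, and Gamt, listed for astrocytes. Gamt is read here only as a glial gene and is no check of astrocytes. The labelled tissue could therefore be checked only in part, with Mbp at 0.75 to 1.51 on slide 1 and 0.90 to 1.39 on slide 2. Chgb read 0.13 to 0.55 on slide 1 and -0.82 to -0.48 on slide 2, and Gamt 1.78 to 2.27 and 0.86 to 1.18, so both moved with the slide, and their part in the slide differences of the 4 genes was not tested. The microglial, endothelial, blood and vesicle markers listed had no named probe.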

How the data were processed

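The scanner files hold 1-colour Cy3 spot intensities. Per the file headers, the authors' arrays were read with Agilent Feature Extraction, version 11.0.1.1. The deposited processed intensity is subtracted for background and detrended within an array, and not scaled between arrays. Levels here are log2 of it minus the array's 75th percentile over noncontrol spots. Spots of a probe were averaged and spots marked non-uniform left out, of which these 4 probes had 0. Differences were tested with limma 3.58.1 in R 4.3.3 (lmFit, eBayes), two-sided, over the 49363 probes well above background on 5 or more of the 10 arrays, with Benjamini-Hochberg adjustment and a threshold of 0.05. The procedure was tested on simulated data.

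The labels name no slide. Slides are arrays that share a scan image identifier in the file headers, and a slide term, other scalings (the median, another 75th percentile set, quantile, spots named as negatives), normexp with an offset of 50, array weights, spot and probe filters and leaving out each array were alternatives. Because the files hold no mean spot signal, normexp used the median signal. The authors' deposited log2 value table, of unstated scaling, holds 60641 probes and 0 of the 50 probes of this kind, so it gave no value for the 4 genes.

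Probes were named by matching their RefSeq accession to a gene table, which gave a symbol for 46 of 50. The headers name another genome build than that table, so no coordinates are given. Named genes were the 4, listed genes with a named probe, and for each of the 4 the 3 named genes with the highest r within slides. The genes, lists and markers were chosen with earlier results of these data known.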

Additional observations from a re-analysis of the deposited data

Results flagged for a closer look

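In 3 of the 8 sets formed by a gene and a group, 1 array lay apart from the other 4 by more than Dixon's 95% limit, and each time it was replicate 4 of the ethanol group, which shares slide 1 with room air arrays alone. Its gap to the next array was 0.803 of the whole range of the ethanol group for Lhx1, 0.783 for Nup50 and 0.737 for Alkbh4. Chance marks about 1 set in 20 where arrays are exchangeable, which these are not, since replicate 4 lies on the other slide from the rest of its group, so that rate does not apply here. These 3 sets come from the same array and are not independent. No E2f1 reading stood apart in this way, where the largest share was 0.562, in room air. Without ethanol replicate 4 the unblocked differences were 0.75 for Lhx1, 1.14 for Nup50 and 1.18 for Alkbh4, none passing.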

How the results depend on the processing

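The fit over all arrays gave Lhx1 a positive difference of 0.24 that turned negative with the slide as a block (-0.66), within slide 1 (-1.03), within slide 2 (-0.46), with median scaling (-0.19) and with scaling to the spots named as negatives (-0.77), an alternative chosen after seeing the data. With the slide as a block it was also negative with median scaling (-0.73), the 75th percentile of probes well above background on every array (-0.58), quantile normalization (-0.49), normexp (-0.53), array weights (-0.60), population outlier spots left out (-0.68, chosen after seeing the data) and scaling to the negatives (-0.74). E2f1 turned from 0.19 to -0.24 with median scaling, -0.38 with quantile normalization and -0.82 with scaling to the negatives. That last scaling turned Nup50 from 0.84 to -0.17 and Alkbh4 from 0.80 to -0.21, and Alkbh4 to -0.0048 with the block. Alkbh4 was -0.068 within slide 1. Array weights alone took Lhx1 to 1.30 (adjusted p 0.00385), Nup50 to 1.63 (0.000244) and Alkbh4 to 1.72 (0.000352). The count of probes past the threshold went from 0 to 34418 of 49363, of which 26431 were higher and 7987 lower. With the block that count was 0. In every other alternative run for the group comparison that count was 0, with 1602 to 4693 probes at an unadjusted p under 0.05 outside the array weight fits and the fits without 1 array.

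Leaving out 1 array at a time, the Lhx1 group difference ran from -0.096 (without room air replicate 1) to 0.75, and with the block from -0.77 to -0.46. Over the fits without and with the block together, E2f1 ran from 0.025 to 0.41, Nup50 from 0.18 to 1.14 and Alkbh4 from 0.0039 to 1.18. The interaction of Nup50 ran from -0.13 to 0.13, and the count of probes past the threshold for the interaction from 0 to 25, the latter without room air replicate 1. The Lhx1 slide difference stayed between 2.02 and 2.43.

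Between slides E2f1 passed as lower with median scaling (-1.14), quantile normalization (-1.39) and scaling to the negatives (-2.55), and turned to 0.22 with the 75th percentile of probes well above background on every array. Nup50 did not pass with quantile normalization (0.12, adjusted p 0.455), nor did Alkbh4 (0.35, adjusted p 0.162). Scaling to the negatives gave -0.058 for Lhx1, -0.77 for Nup50 and -0.51 for Alkbh4. Of the slide calls over all probes, 28051 were higher and 9090 lower on slide 2, against 12044 and 19403 with median scaling, 35407 and 5878 with the 75th percentile of the same probes, 14699 and 12774 with quantile normalization, and 826 and 40690 with scaling to the negatives. The cause of these changes was not tested.

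No paired analysis was possible because the sample numbers run from 1 to 10 over both groups and none is shared. Slide 1 holds 1 ethanol array, which limits every blocked value, and Nup50 and Alkbh4 have mostly dim readings there.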
